A study of Mus musculus with 8 samples.

Results

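The 10 genes described here are the core of the mouse pluripotency network: Pou5f1 (which encodes Oct4), Sox2, Nanog, Esrrb, Tfcp2l1, Prdm14, Sall4, Zfp42 (Rex1), Lin28a and Lin28b. They were taken by name, and the regions examined were the body of each gene and 25 kb on both sides, so no measured value enters the rule, although the list was drawn up with earlier results of these data known. They are 10 of the 21887 protein-coding genes of the mouse annotation. Their windows held 50 of the 100099 accessible regions (peaks) found with the empty vector and 90 of the 128538 found with Klf4.

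The assay was ATAC-seq, in which a transposase inserts sequencing adapters into DNA that is not packed by nucleosomes. The cells were MIN6, a wild-type line per the labels, derived from a mouse insulinoma and labelled as beta cells. Lipid transfection for 48 hours delivered either the plasmid pcDNA 3 without insert (4 libraries) or pGloMyc-Klf4, which expresses Klf4 (4 libraries), and no untransfected cells are among the samples. The values come from 1 merged peak list per plasmid, so each count and length below is a single value without replicate error, no test between the plasmids was possible, and the read depth is unknown. Transfection reaches part of a culture, and more cells open at a site cannot be told apart from a more open site in each cell.

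Oct4, Sox2 and Nanog form the centre of a circuit of transcription factors that bind their own and each other's genes and keep embryonic stem cells able to form all tissues of the embryo. Klf4 is one of the factors used together with Oct4, Sox2 and Myc to reprogram differentiated cells into pluripotent ones, and in stem cells it binds near many genes of this circuit. In differentiated cells most of these genes are silent, and the question was whether sites at them were open in a beta cell line with either plasmid.

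The start sites of 5 members carry the contrast between open and closed chromatin, and the 250 bases before each are shown 5′ to 3′ on the gene's strand. They are RefSeq sequence of GRCm38.p6, the assembly also called mm10, which the submitters' processing notes name. Capitals mark every match, on either strand, to CACCC or CCNCNCCC, letters found in binding sites of Klf-type zinc fingers. The 2 motifs can overlap each other and, in runs of G or C, themselves. The sequences lie at chr17:35505782-35506031 (Pou5f1, first of 2 annotated start sites, plus strand), chr3:34649745-34649994 (Sox2, plus strand), chr6:122707239-122707488 (Nanog, first of 2, plus strand), chr1:118627695-118627944 (Tfcp2l1, plus strand) and chr8:43307010-43307259 (Zfp42, minus strand). Pou5f1 and Sox2 had a peak over these bases with Klf4 only, Nanog had none over them in either list but one inside the gene nearby in both, Tfcp2l1 was under a strong peak with both plasmids, and Zfp42 was far from any peak.
Pou5f1: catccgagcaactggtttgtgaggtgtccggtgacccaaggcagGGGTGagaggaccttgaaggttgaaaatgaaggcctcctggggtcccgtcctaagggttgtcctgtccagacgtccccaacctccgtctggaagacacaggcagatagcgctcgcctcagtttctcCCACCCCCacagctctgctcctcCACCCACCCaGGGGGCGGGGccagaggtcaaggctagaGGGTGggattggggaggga
Sox2: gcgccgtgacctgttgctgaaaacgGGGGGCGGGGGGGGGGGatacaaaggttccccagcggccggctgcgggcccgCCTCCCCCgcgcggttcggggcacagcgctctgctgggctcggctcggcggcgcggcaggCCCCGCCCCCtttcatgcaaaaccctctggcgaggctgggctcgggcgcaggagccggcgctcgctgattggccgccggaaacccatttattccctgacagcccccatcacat
Nanog: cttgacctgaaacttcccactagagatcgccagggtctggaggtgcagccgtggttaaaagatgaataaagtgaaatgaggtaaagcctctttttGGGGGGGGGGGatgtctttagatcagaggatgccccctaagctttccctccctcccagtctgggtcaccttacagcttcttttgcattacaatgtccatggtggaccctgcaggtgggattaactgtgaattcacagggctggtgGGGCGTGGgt
Tfcp2l1: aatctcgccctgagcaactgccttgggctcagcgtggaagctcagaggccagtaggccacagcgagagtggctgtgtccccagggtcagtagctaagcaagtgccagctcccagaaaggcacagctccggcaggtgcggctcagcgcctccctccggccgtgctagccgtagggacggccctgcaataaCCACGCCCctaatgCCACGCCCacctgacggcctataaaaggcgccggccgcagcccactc
Zfp42: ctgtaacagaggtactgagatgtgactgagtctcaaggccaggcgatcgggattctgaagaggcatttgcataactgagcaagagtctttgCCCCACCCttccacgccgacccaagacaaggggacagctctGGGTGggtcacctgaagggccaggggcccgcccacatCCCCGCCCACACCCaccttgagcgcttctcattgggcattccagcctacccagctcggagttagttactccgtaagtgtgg

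As a check of the lists, all 12 beta cell genes examined, among them Ins1, Ins2, Pdx1 and Nkx6-1, had a peak in their window with both plasmids, and all 8 of them with a start site in the sequence table had a peak within 1 kb of it. Inside the gene body of Klf4 itself the Klf4 list had its strongest peak (−log10 q 17134, rank 1), where reads of the plasmid insert and of the gene cannot be told apart. The Klf4 list was the longer one, with 1.28 peaks for each empty vector peak and 1.28 times the covered length over the main chromosomes. This ratio stands behind every comparison of counts that follows.

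Sites in the windows of most pluripotency genes were open in MIN6 cells already with the empty vector. At least 1 peak lay in the window of 9 of the 10 genes with the empty vector and of the same 9 with Klf4, against 86.1% and 87.3% of all coding genes. The member without any peak was Zfp42, which encodes a zinc finger protein long used as a marker of naive stem cells, and 11.9% of coding genes likewise had none in either list. A share of 9 in 10 is thus near that of coding genes in general. The median member had 4.5 peaks covering 3230.5 bp with the empty vector and 5.5 peaks covering 5461.5 bp with Klf4, while the median coding gene had 5 peaks and 3706 bp, and 7 peaks and 4747 bp.

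**Figure D1:**
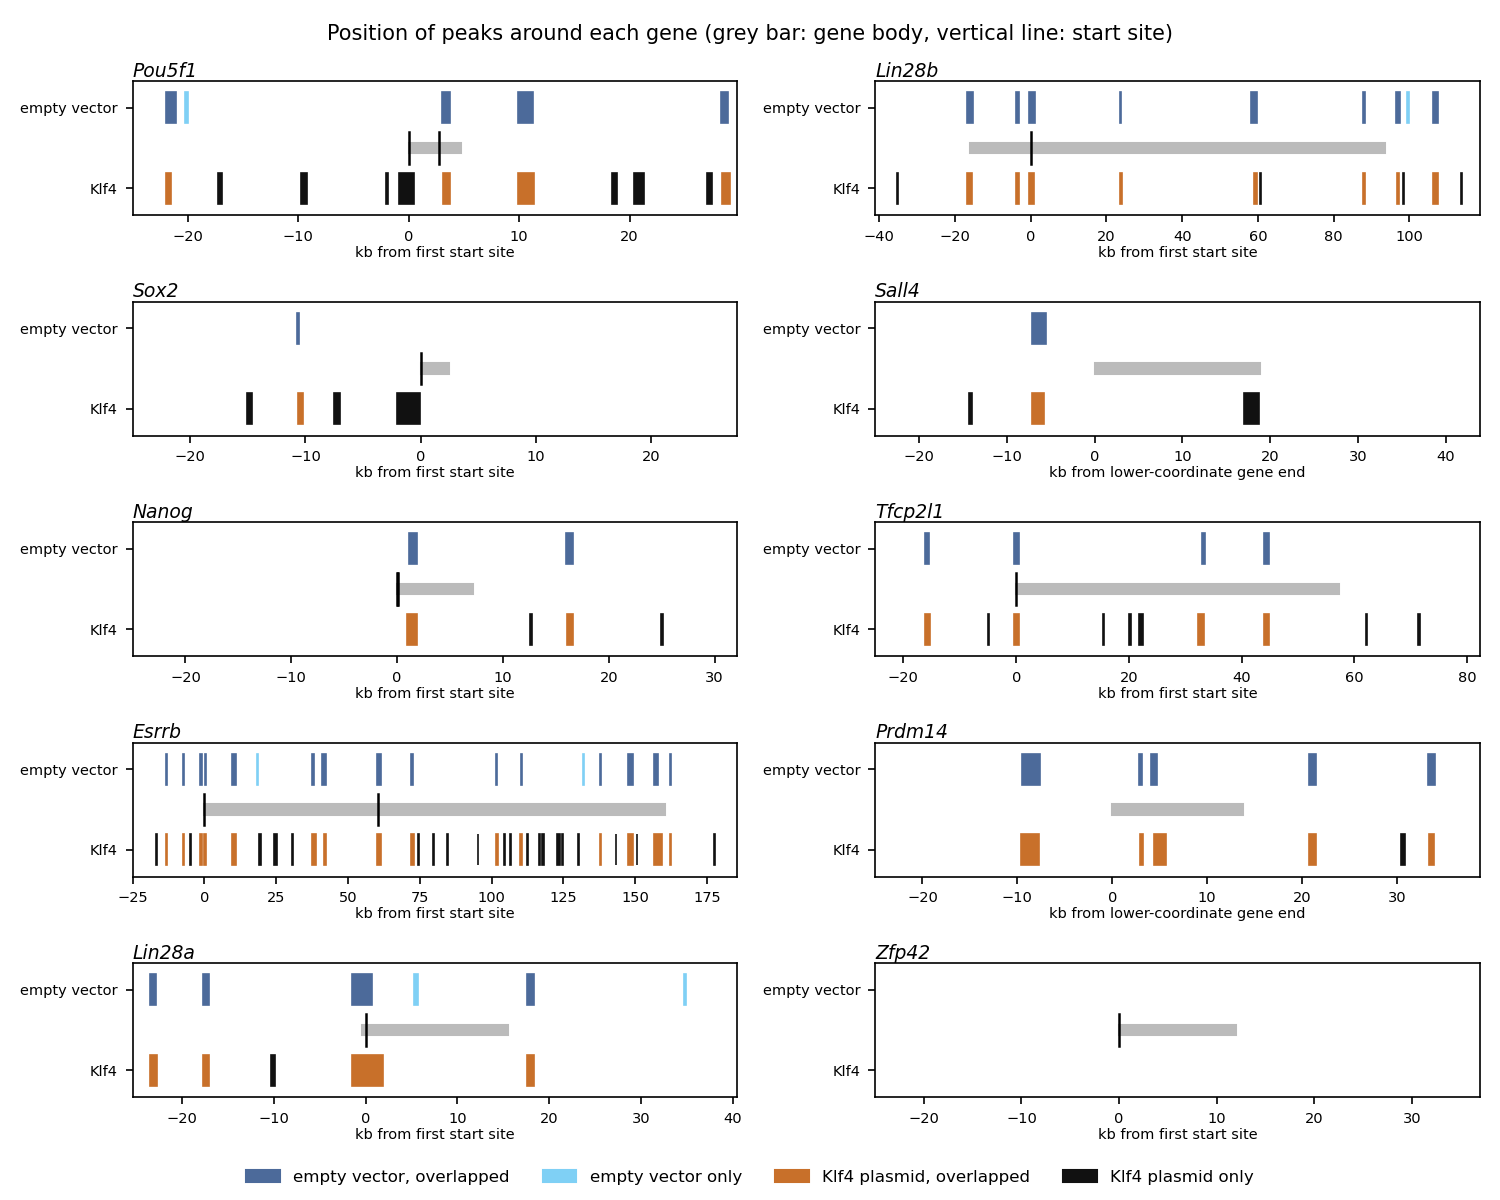
Peaks over the 10 gene windows by distance in kb from the first annotated start site, in the direction of transcription, or from the lower-coordinate gene end for Sall4 and Prdm14; the upper row of each panel is the empty vector list and the lower row the Klf4 list, and bar width is peak width. Peaks found in 1 list only, 6 with the empty vector and 46 with Klf4, are drawn in light blue and black, and Zfp42 has no peak in either row.

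More of the windows was called open with Klf4. Of the 10 genes, 8 had more peaks with Klf4 and 1 (Lin28a) had fewer, against 59.5% and 11.8% of all coding genes. Summed over the windows the peak number ratio was 1.80 (90 against 50), compared with 1.30 for peaks within the same distance of any coding gene. The covered length was 62777 bp against 39358 bp, a ratio of 1.60. Covered length was higher with Klf4 at 8 genes and lower at 1 (Lin28b), against 67.8% and 20.2% of coding genes. With 500 bp added to both lengths, the log2 ratio of covered length (Klf4 over empty vector) had a median of 0.62 over the members and 0.21 over all coding genes. Sox2 and Tfcp2l1 were the 2 members past a 2-fold difference, against 7.98% of coding genes, and no member was past it in the other direction, against 0.251%. Sox2 alone was past it among peaks with a −log10 q of at least 5 or a width of at least 500 bp, against 7.81% and 9.70% of coding genes. When equal numbers were taken from both lists, the top 20000 by −log10 p, it was Lin28b alone, against 2.69% of coding genes. Over the full lists Lin28b had less covered length with Klf4. By −log10 q its strongest site ranked 20658 with the empty vector and 18573 with Klf4. Among these top peaks the median log2 ratio was 0.017 over the members and 0 over all coding genes.

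Esrrb, the longest member, held 35 of the 90 Klf4 peaks. Without it the peak number ratio was 1.67 (55 against 33), the covered length ratio 1.497, and the median log2 ratio 0.41. The higher count with Klf4 thus did not rest on Esrrb alone. Among peaks with a −log10 q of at least 5 the windows held 53 against 36, a ratio of 1.47, compared with 1.26 for the whole lists under this limit.

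**Figure D2:**
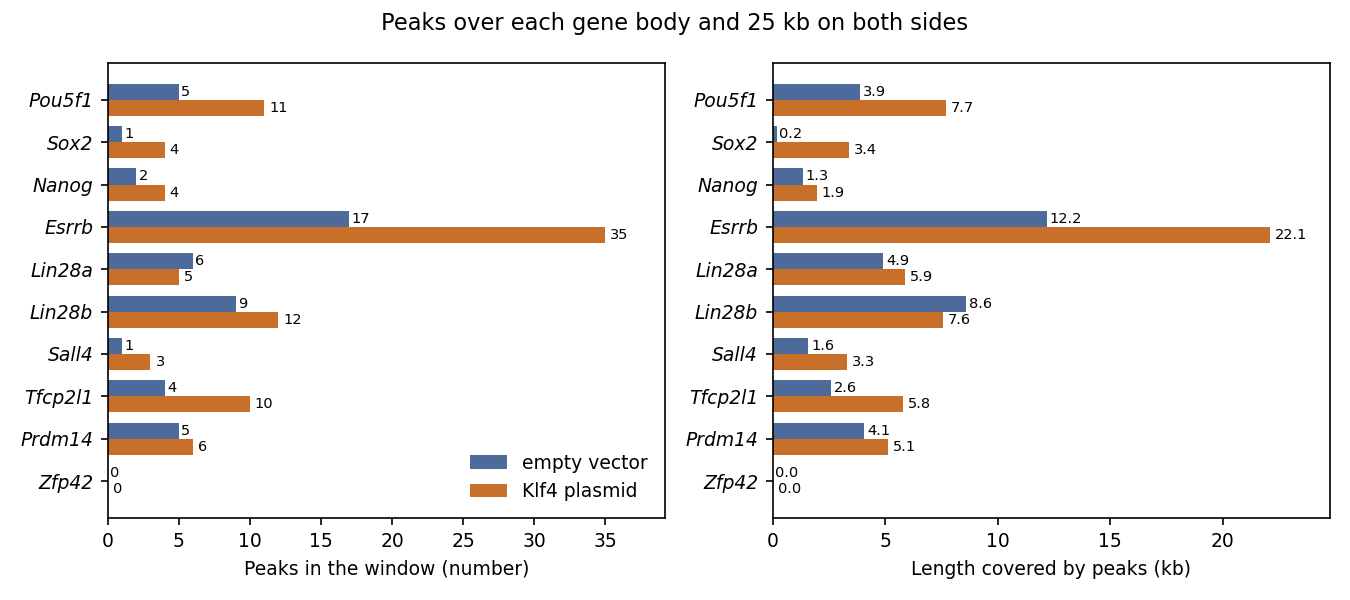
Number of peaks (left) and kb covered by peaks (right) in the window of each gene, with 1 bar for each merged list. The bars run from 0 at Zfp42 to 17 and 35 peaks at Esrrb, and Lin28a is the gene with fewer peaks and Lin28b the gene with less covered length with Klf4.

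Pou5f1 encodes the POU-domain factor Oct4, without which the pluripotent cells of the embryo do not form. Its window on chromosome 17 (gene body 35506032 to 35510777) held 5 peaks and 3864 bp with the empty vector and 11 peaks and 7684 bp with Klf4, a log2 ratio of 0.91. The first annotated start site lay under a peak with Klf4 only, 35505171 to 35506530, which covered all 250 of the bases printed above. Its enrichment was 2.81-fold over the peak caller's local background at a −log10 q of 6.98, both as the authors deposited them, and 53.1% of the Klf4 list ranked as high or higher. With the empty vector the nearest peak lay 3060 bp from this start site. The bases of this start site hold 5 matches to CACCC and 3 to CCNCNCCC. The lncRNA gene Gm32362 starts within 1 kb of the same peak, so the peak cannot be assigned to Pou5f1 alone.

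A second annotated start site of Pou5f1, inside the gene, had a peak beside it with both plasmids. It lay 285 bp from the site with the empty vector (35509092 to 35509800, −log10 q 13.0) and 360 bp from it with Klf4 (35509167 to 35509760, −log10 q 13.7). The strongest peaks of the window were not at Pou5f1 but at the shared start region of its neighbours Tcf19 and Cchcr1, 10.6 kb downstream, where the −log10 q was 125 with the empty vector and 92.02 with Klf4. These peaks stood in the top 4.13% and 3.88% of their lists. Of the 11 Klf4 peaks in this window 7 had no counterpart in the empty vector list. They included 3 upstream of the gene, 17.1, 9.5 and 2.0 kb before the first start site, of which the one at 2.0 kb was 214 bp wide with a −log10 q of 9.35. The empty vector list had 1 peak of its own, at 20.1 kb upstream.

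Sox2 encodes the HMG-box partner of Oct4 and is a single-exon gene inside the long non-coding RNA gene Sox2ot. It was the member with the largest log2 ratio of covered length, from a low start: 1 peak of 181 bp with the empty vector and 4 peaks of 3393 bp with Klf4, a log2 ratio of 2.52. Esrrb and Pou5f1 gained more peaks and more covered length. The empty vector peak, chromosome 3, 34639271 to 34639451, lay 10.6 kb upstream with a −log10 q of 7.88, and a Klf4 peak of −log10 q 6.53 overlapped it. A Klf4 peak of 2018 bp, 34647916 to 34649933, ended 62 bp before the start site and covered 189 of the 250 bases printed above. Its −log10 q was 7.02 at 4.10-fold enrichment. With the empty vector the nearest peak to the start site was 10544 bp away, and 21.97% of coding genes with a start site in the table were farther from a peak. The strongest Klf4 peak here, 34642467 to 34642989 at 7.3 kb upstream, had a −log10 q of 19.5 and was in the top 22.4% of its list, again without an empty vector counterpart. No peak of either list lay in the Sox2 body or downstream of it.

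Nanog encodes a homeodomain factor that stabilises the stem cell state. Both plasmids gave the same 2 main sites on chromosome 6. The first lay inside the gene, 122708619 to 122709338 with the empty vector (−log10 q 19.8) and 122708402 to 122709410 with Klf4 (−log10 q 13.4). The second, 16.3 kb downstream of the start site and outside the gene, was among the stronger sites of both lists, with a −log10 q of 66.8 and 51.2 in the top 10.3% and 8.78%. The start sites themselves were not under a peak. The nearest empty vector peak began 1130 bp from the first and 1054 bp from the second, and the nearest Klf4 peak 913 and 837 bp from them, so that a limit of 1 kb counts Nanog as near a peak with Klf4 only although the same site was open with both. Klf4 added 2 narrow peaks, of 186 and 170 bp, with −log10 q of 4.00 and 5.76.

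Esrrb encodes an orphan nuclear receptor that can stand in for Klf4 in reprogramming. Its gene is long, and on chromosome 12 its window held 17 peaks and 12180 bp with the empty vector and 35 peaks and 22104 bp with Klf4, a log2 ratio of 0.83. Both annotated start sites had a peak within 1 kb in both lists. The second, inside the gene, was covered outright, by 86421337 to 86422579 with the empty vector (−log10 q 31.8) and 86421327 to 86422579 with Klf4 (−log10 q 25.1). The first was flanked by weak peaks only, with −log10 q of 5.74 and 3.10 with the empty vector and 5.51 and 4.91 with Klf4, and the lncRNA gene Gm40483 starts at the same place.

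The strongest Esrrb peak of both lists was intragenic, 10.4 kb from the first start site, at 86370795 to 86372221 with the empty vector (−log10 q 67.6) and 86370813 to 86372242 with Klf4 (−log10 q 43.9). It stood in the top 10.1% and 10.3% of the lists. A Klf4 peak overlapped 15 of the 17 empty vector peaks, and 20 of the 35 Klf4 peaks had no counterpart. Among these, 2 were strong, 86385212 to 86386428 at 24.7 kb (1217 bp, −log10 q 32.4) and 86491090 to 86491718 at 130.3 kb (629 bp, −log10 q 32.9), in the top 13.9% and 13.7% of the Klf4 list. The other 18 had a −log10 q between 1.19 and 9.65.

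Tfcp2l1 encodes a CP2-family factor of naive stem cells and was the member with the clearest open start site. With the empty vector the peak 118627578 to 118628413 on chromosome 1 covered the start site at 8.49-fold enrichment and a −log10 q of 70.1, in the top 9.73% of the list. With Klf4 the peak 118627563 to 118628430 had 7.71-fold enrichment and a −log10 q of 63.4, in the top 6.84%. All 4 empty vector peaks of this window were overlapped by a Klf4 peak. The Klf4 list added 6 more, 232 to 637 bp wide with −log10 q of 2.01 to 9.35 and 2052 bp in all. Covered length went from 2597 to 5808 bp, a log2 ratio of 1.03, and part of the gain lay in wider shared peaks, such as one that spanned 382 bp in the empty vector list but 1174 bp after Klf4. The start site was thus open in both lists, and most of the difference lay in the gene body and flanks.

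Sall4 and Prdm14 have no start site in the sequence table, so their peaks are placed by gene ends. Sall4, which encodes a zinc finger protein known to interact with Oct4 and Nanog, had 1 peak of 1587 bp with the empty vector, at the start of the neighbouring gene Atp9a on chromosome 2 and outside Sall4. With Klf4 it had 3 peaks and 3290 bp, a log2 ratio of 0.86. One of them, 168765368 to 168767067, lay inside Sall4, 134 bp from the higher-coordinate gene end, where the lncRNA gene Gm14261 also starts. It was 1700 bp wide with a −log10 q of 13.4, in the top 31.5% of the Klf4 list, and the nearest empty vector peak was 22524 bp away. The Sall4 gene body had no peak with the empty vector.

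Prdm14 encodes a PR-domain protein of naive stem cells and primordial germ cells. Its window on chromosome 1 held 5 peaks and 4076 bp with the empty vector and 6 peaks and 5115 bp with Klf4, a log2 ratio of 0.30. All 5 empty vector peaks were overlapped by a Klf4 peak. The strongest sites were outside the gene, 13146755 to 13147401 with the empty vector (−log10 q 70.5) and 13146778 to 13147388 with Klf4 (−log10 q 49.9), 19592 bp (19615 bp with Klf4) beyond the higher-coordinate gene end. The peaks inside the gene were weaker, with −log10 q of 4.50 and 7.31 with the empty vector and 2.74 and 6.34 with Klf4.

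Zfp42 was the closed member. No peak of either list lay in its window on chromosome 8, and the nearest empty vector peak was 138653 bp and the nearest Klf4 peak 138658 bp from its start site. Only 6.49% and 6.13% of coding genes with a start site in the table were farther from a peak. The printed bases before its start site hold 3 matches to CACCC and 3 to CCNCNCCC, as well as the only match to the octamer ATGCAAAT, a sequence bound by POU factors, among the 11 member start sites, 186 bp before the start counted to its far end. Over all start sites of coding genes 1.58% hold the octamer.

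Lin28a and Lin28b encode RNA-binding proteins that block the maturation of let-7 microRNAs. The start sites of both lay under a peak with both plasmids. At Lin28a on chromosome 4 the peak was 134018145 to 134020253 with the empty vector (2109 bp, −log10 q 18.4) and 134016882 to 134020239 with Klf4 (3358 bp, −log10 q 11.5), the widest peak at any member. The strongest peaks of its window were at the start of the neighbour Dhdds, with −log10 q of 145 and 109. Next came a site 23.1 kb upstream of Lin28a, with −log10 q of 107 and 93.0, in the top 5.45% and 3.78%. An intragenic peak of 501 bp, 134013091 to 134013591, with a −log10 q of 13.6, was found with the empty vector only. It was the strongest of the 6 empty-vector-only peaks at the members.

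Lin28b on chromosome 10 had 9 peaks and 8614 bp with the empty vector and 12 peaks and 7563 bp with Klf4, a log2 ratio of −0.18, so that peak number and covered length went opposite ways. The peak over its annotated start site was weak in both lists, with −log10 q of 6.54 and 6.68. The strongest site lay 16.0 kb upstream of that start site, at the far end of the gene as the annotation draws it, 45485388 to 45486921 with the empty vector (−log10 q 30.7) and 45485604 to 45487027 with Klf4 (−log10 q 31.1). A Klf4 peak overlapped 8 of the 9 empty vector peaks.

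**Figure D3:**
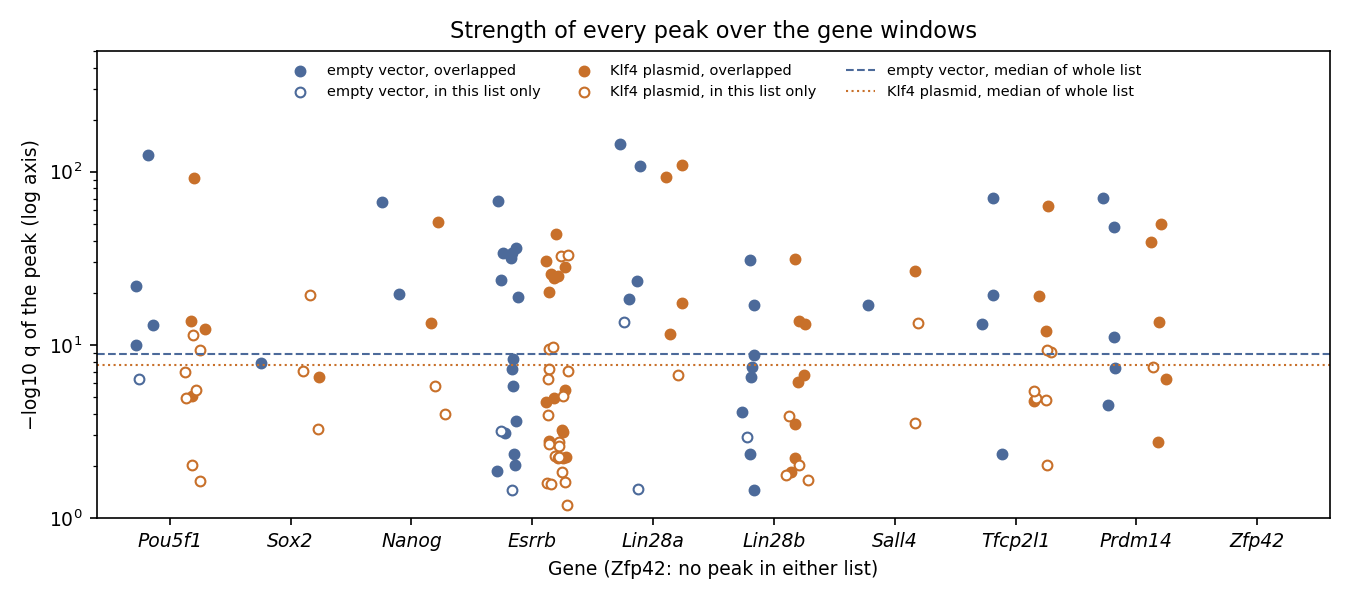
−log10 q of every peak over the gene windows on a log axis, as deposited by the authors; filled points are overlapped by a peak of the other list, open points are in 1 list only, and lines are the medians of the whole lists (8.82 with the empty vector, 7.61 with Klf4). Of the 46 open Klf4 points 10 lie in the stronger 50% of that list, and values are to be read within a list.

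As over the whole lists, the members' peaks found with both plasmids were stronger than those found with 1. Of the 50 empty vector peaks 44 (88.0%, 95% Wilson interval 76.2 to 94.4%) were overlapped by at least 1 bp of a Klf4 peak, against 81.2% of the whole list. An empty vector peak in turn overlapped 44 of the 90 Klf4 peaks (48.9%, interval 38.8 to 59.0%), against 63.3% of the whole list and 63.4% within 25 kb of any coding gene. The intervals cover counting error only, and neighbouring peaks of a gene are not independent. The 44 overlapped Klf4 peaks had a median width of 719 bp and a median −log10 q of 13.3, and the 46 others 339.5 bp and 4.86. Over the whole Klf4 list the median −log10 q was 10.8 for overlapped peaks and 4.75 for the others. No Klf4-only peak of the members was in the strongest 10% of the list and 10 of the 46 (21.7%) were in the stronger 50%, against 0.276% and 29.4% of all Klf4-only peaks. In the empty vector list the median −log10 q was 15.1 for the members' 44 overlapped peaks and 3.05 for the 6 others, and 12.2 and 2.63 over all peaks of these kinds.

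Counted by start site, 6 of the 11 annotated start sites of the 8 members in the sequence table had an empty vector peak within 1 kb and 10 of 11 had a Klf4 peak, against 63.7% and 70.6% of all 21263 start sites. Counted by gene, a peak covered a start site at 4 of 8 members with the empty vector and 5 of 8 with Klf4, against 59.4% and 65.2% of the 17492 coding genes with a start site in the table. Within the wider limit of 1 kb, 5 of 8 members had a peak within 1 kb of a start site with the empty vector and 7 of 8 with Klf4, against 64.3% and 70.8%. The 5 genes were near a peak with both plasmids (63.6% of coding genes), Sox2 and Nanog with Klf4 only (7.2%), none with the empty vector only (0.64%), and Zfp42 with neither (28.5%). The count depends on the limit and on the strength of the peaks: within 2500 bp it was 6 and 7, with Nanog in both, and within 250 bp 4 and 6. The shares of coding genes within 2500 bp and 250 bp were not computed. Among the top 20000 peaks of each list the count within 1 kb was 1 and 1, Tfcp2l1 in both, against 49.0% and 49.95% of coding genes.

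The base composition before the start sites varied among the members. Of the 250 bases before the start, 72.0% were G or C at Sox2 and 62.0% at the first start site of Pou5f1, compared with a median of 55.6% over 21263 start sites of coding genes. The same quantity was 65.2% at Tfcp2l1, 61.2% at Lin28a, 60.8% and 52.0% at the start sites of Esrrb, 45.6% at the second of Pou5f1 and 39.2% at Lin28b, all near a peak with both plasmids. The first start site of Pou5f1 thus lay within the range of these and Sox2 above it. The quantity was 58.4% at Zfp42, near no peak, and 52.0% and 57.6% at the start sites of Nanog. Over all coding genes the median was 60.4% at start sites near a peak in both lists and 56.4% at those near a Klf4 peak only. Over all coding genes, start sites without an empty vector peak within 1 kb had a Klf4 peak there in 4.13% of cases where at most 47.2% of these bases were G or C, in 25.4% from 47.6 to 55.6%, in 64.2% from 56.0 to 64.0% and in 78.6% at 64.4% or more. Whether base composition has a part in the Klf4-only peaks at Sox2 and Pou5f1 was not tested.

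Klf-type letters were common at the members' start sites and at start sites in general. CCNCNCCC was present in 9 of the 11 member sequences and CACCC in 6, compared with 52.9% and 54.2% of all 21263 sequences of the same length. The Sox2 sequence holds 9 matches to CCNCNCCC, in runs of G and C, and none to CACCC. Over all coding genes CCNCNCCC was present at 65.3% of start sites near a peak in both lists, 63.9% of those near a Klf4 peak only and 23.2% of those near none. For CACCC these shares were 58.9%, 70.4% and 39.7%. CATTGTT, a Sox-type motif, was found at 1 of the 11, the second start site of Pou5f1, and at 2.84% of all start sites. A match is a description of letters.

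The wider circuit likewise held open and closed genes. Of 25 further genes linked to pluripotency 21 had a peak in their window with the empty vector and 23 with Klf4, against 86.1% and 87.3% of all coding genes. Of the 14 with a start site in the table, 6 had a peak within 1 kb of it with the empty vector and 12 with Klf4, where the shares of coding genes were 64.3% and 70.8%. The 6 that differed were Nr5a2, Utf1, Fgf4, Tcl1, L1td1 and Trim71, and no gene differed the other way. Covered length was higher with Klf4 at 20 genes, lower at 3 and equal at 2, with a median log2 ratio of 0.45, and 6 genes were past 2-fold (7.98% of coding genes). The 4 largest were Nr5a2, a nuclear receptor that can replace Oct4 in reprogramming (690 to 4227 bp), Fgf4, a growth factor gene driven by Oct4 and Sox2 in stem cells (1363 to 6412 bp), Tcl1 (no peak to 997 bp) and Tfap2c (1401 to 4986 bp). Nr0b1 had no peak in either list.

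Genes of unrelated lineages were set beside these. Of 12 genes of other lineages, such as Gata1 of blood and Myod1 of muscle, 11 had a peak in their window with the empty vector. Of the 7 with a start site in the table, 3 had a peak within 1 kb of it with the empty vector and 5 with Klf4, and Gata1 and Nkx2-5 were the 2 that differed. Their median log2 ratio was 0.39, and 3 of the 12 were past 2-fold, among them Cd3e (307 to 1199 bp). For the 12 beta cell genes this median was 0.15 with none past 2-fold, and for the 10 genes in use in most cells 0.17 with 1 (Rplp0). In both gene sets all 8 genes with a start site in the table had a peak within 1 kb of one with both plasmids.

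**Figure D4:**
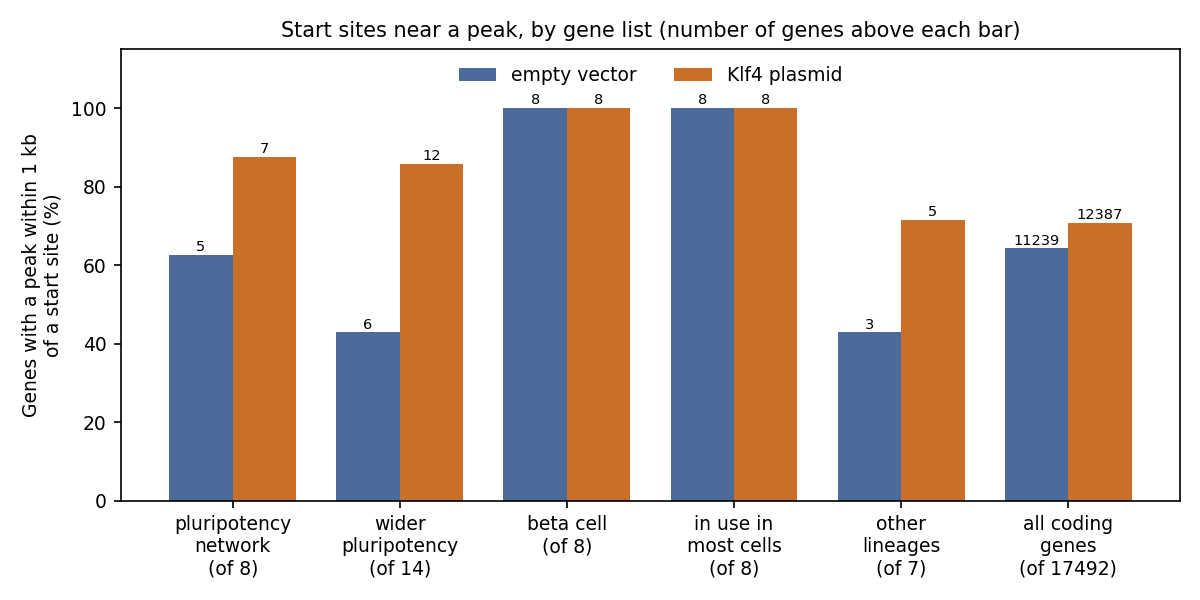
Percent of genes with a peak within 1 kb of an annotated start site, for 5 gene lists and all coding genes, with 1 bar for each merged list and the number of genes above it. The bars for beta cell genes and genes in use in most cells are at 100% with both plasmids, and the members go from 5 to 7 of 8 genes.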

How the data were processed

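The data are ATAC-seq peaks of MIN6 cells, 4 empty vector libraries and 4 Klf4 libraries, deposited as 1 merged broad peak list per plasmid. Per the submitters' processing notes, FastQC, Bowtie2, MACS2 and DiffBind were used with build mm10. Versions, read filters, transposase shift, duplicate handling and the way replicates were merged are not given in the sources used here. The authors deposited a fold enrichment (a ratio to local background), a −log10 p, a −log10 q and a display score for each peak. The score was not used, and the smallest deposited −log10 q was 1.02 and 1.00. Depth is unknown, and depth and signal to noise affect how many weak peaks pass.

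Peaks on chromosomes 1 to 19, X and Y were used, which left out 165 and 188 on scaffolds. Genes came from the RefSeq GRCm38.p6 table, with all 10 members found, and start sites from the RefSeq promoter table, with 8 found. Peaks and covered length were counted over each gene and 25 kb beyond both ends. Overlap means at least 1 bp. The members and gene lists were chosen with earlier results of these data known. All members are named, and of comparison lists the genes past 2-fold, at most 4 in each direction. The values of some genes of these lists are not reported here. Start sites that differed in the 3 lists were named after their values were seen. Alternatives were −log10 q of at least 5, the top 20000 peaks, peaks of at least 500 bp, windows of 10 kb, 50 kb or the body alone, start limits of 250 and 2500 bp, 50% overlap and 100 bp added in place of 500 bp. On simulated data with 1000 genes, counts and lengths were recovered at 1000, and 200 of 200 genes past 2-fold were found with 0 false. Steps ran in Python 3.11.15 with pandas 2.3.3, numpy 2.4.6, matplotlib 3.10.9 and scipy 1.17.1.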

Additional observations from a re-analysis of the deposited data

How the results depend on the processing

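No paired analysis was possible because each plasmid has 1 merged list and no values per library, so the replicate block and leaving out replicates were not run. Of 81 values under alternatives 62 stayed within limits (1.5 times for counts and ratios, the Wilson interval for shares) and 19 moved. Only the covered length ratio and the median log2 ratio have a direction that could change, and neither changed it. Peaks over the windows numbered 11 with the empty vector and 12 with Klf4 among the top 20000 peaks, 28 and 48 in gene bodies alone, and 33 and 55 without Esrrb, a setting added after seeing the data. The empty vector number was 78 with windows of 50 kb, and the Klf4 number 53 at a −log10 q of at least 5 and 50 for peaks of at least 500 bp. Among the top 20000 peaks 1 member had a peak at its start site in each list, and the median log2 ratio was 0.017. The overlapped share of Klf4 peaks was 75.0% among the top 20000, 60.4% for −log10 q of 5 or more and 66.0% at 500 bp or more, where that of empty vector peaks was 97.1%. The overlapped shares of the whole lists under these settings were not computed, so these values cannot be set against them. Under these 3 settings 1 member was past 2-fold with Klf4, Lin28b among the top 20000 and Sox2 under the other 2. As reported, Lin28b had less covered length with Klf4. The shares of coding genes past 2-fold were 2.69% among the top 20000, 7.81% for −log10 q of 5 or more and 9.70% at 500 bp or more. Taking the same number of peaks from both lists sets their ratio to 1. The filters remove weak peaks by construction, and otherwise the cause was not tested.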

Other observations

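MicroRNA genes tied to the same circuit were examined after the members' values were seen, as a description of these 2 lists. The miR-290 and miR-302 clusters are transcribed in pluripotent cells, and let-7, which Lin28a and Lin28b hold back, is abundant in differentiated ones. The mature sequences from RefSeq are shown with their seed (bases 2 to 8) in capitals. The seed sets let-7 apart from the others, and the miR-294-3p and miR-302d-3p sequences share theirs.
mmu-let-7a-5p: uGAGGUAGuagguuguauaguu
mmu-let-7b-5p: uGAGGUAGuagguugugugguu
mmu-miR-294-3p: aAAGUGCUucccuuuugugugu
mmu-miR-302d-3p: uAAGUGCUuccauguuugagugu
Within 25 kb of the 8 hairpins of the miR-290 cluster on chromosome 7 the empty vector list had 4 peaks covering 2200 bp and the Klf4 list 2 peaks covering 830 bp, the strongest with −log10 q of 7.61 and 8.34. The difference runs opposite to that at most members. Around the 5 hairpins of the miR-302 cluster on chromosome 3 both lists had 2 peaks, covering 1107 and 1122 bp, and the strongest had −log10 q of 266 and 193.

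Of the 8 let-7 loci, 7 had a peak within 25 kb with the empty vector and 8 with Klf4. Among coding genes, whose windows hold the gene body and the same flanks, 86.1% and 87.3% had a peak. The share over all microRNA loci was not computed. The locus of Mirlet7d, Mirlet7f-1 and Mirlet7a-1 on chromosome 13 had 6 peaks in both lists, with the strongest at −log10 q 242 and 167 and the nearest 1025 and 1862 bp from the hairpins. Covered length was higher with Klf4 at 4 of the 8 loci and lower at the other 4. Mirlet7i lay under a peak with both plasmids. The locus of Mirlet7c-2 and Mirlet7b on chromosome 15 went from 6 peaks and 4492 bp to 10 peaks and 7886 bp, and that of Mirlet7f-2 and Mir98 on chromosome X from 2 peaks and 557 bp to 1 peak and 299 bp. Mirlet7a-2 on chromosome 9 had no empty vector peak within 25 kb, the nearest being 42921 bp away, and 1 Klf4 peak of 651 bp with a −log10 q of 7.96. These windows reach other genes, whose start sites were not separated here.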
